A study of Mus musculus with 11 samples.

Results

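The miR-34 and miR-449 family was followed here in the small RNA-seq data of mouse spermatogonial progenitor cells (SPCs), in which the RNA helicase gene Mov10 had been knocked down. Its members were taken by name, as every listed mature miRNA of the hairpins miR-34a, miR-34b, miR-34c, miR-449a, miR-449b and miR-449c, on either arm. This gave 9 of the 1096 listed miRNAs, which come from 5 hairpins and comprise 5 miRNAs of the 5p arm and 4 of the 3p arm. The SPCs were Thy1-positive cells from testes of mouse pups, cultured on feeder layers of STO mouse embryonic fibroblasts. The labels give postnatal day 6 and strain C57BL/6, whereas the methods give a Rosa transgenic line of mixed strain and a range of ages for the SPC cultures. The control cells (Mov10 Vector in the labels) carried the lentiviral vector without a Mov10 shRNA, and the knockdown cells carried the same vector expressing an shRNA against Mov10. The methods name shVector and shMov10-832 for the RNA-seq libraries and do not name the constructs of the small RNA libraries. Each group had 1 small RNA library, so that no difference was tested against the variation between cultures, and all p-values and intervals cover counting error between these 2 libraries only. The depletion of Mov10 mRNA cannot be read from small RNA data and was not checked here.

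MiRNAs find their target mRNAs mainly through the seed, bases 2 to 8 of the mature strand, and miRNAs with the same seed share many predicted targets. The miR-34 and miR-449 miRNAs share a seed. miR-34a is transcribed from its own gene, whereas miR-34b and miR-34c come from a common primary transcript. Among the direct transcriptional targets of p53, a factor that halts the cell cycle after DNA damage, is miR-34a. The miR-449 miRNAs lie within introns of Cdc20b, a gene active in multiciliated cells. In the testis, the miR-34b/c and miR-449 miRNAs are known to increase as germ cells enter meiosis. Mice that lack both of these clusters are infertile and have too few motile cilia, while loss of either cluster alone is tolerated.

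The mature sequences are shown because the family is defined by its seed and because the 2 arms of a hairpin have different seeds. RefSeq (GRCm38.p6) held a mature sequence for 8 of the 9 members, and miR-34c-5p is given by name only and was counted with the seed family by its name. The 5p sequences are printed 5′ to 3′ with the seed in capitals:
miR-34a-5p: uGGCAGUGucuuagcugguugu
miR-34b-5p: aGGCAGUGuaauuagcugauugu
miR-449a-5p: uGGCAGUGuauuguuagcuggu
miR-449c-5p: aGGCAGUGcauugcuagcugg
All 4 shared the seed GGCAGUG, and no other of the 908 listed miRNAs with a RefSeq sequence had it. The first base was U in miR-34a-5p and miR-449a-5p and A in miR-34b-5p and miR-449c-5p. Compared base by base from the 5′ end, miR-449a-5p and miR-449c-5p were identical at 18 of 21 positions, miR-34a-5p and miR-449a-5p at 15 of 22, and miR-34b-5p and miR-449a-5p at 10 of 22. No listed miRNA had a sequence that contained, or lay within, that of one of these 8 members, so a read of the full length of 1 member could not match another of these sequences without a mismatch.

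The strands of the 3p arm have other seeds, again in capitals:
miR-34b-3p: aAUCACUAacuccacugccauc
miR-34c-3p: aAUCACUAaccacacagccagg
miR-34a-3p: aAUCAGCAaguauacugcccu
miR-449a-3p: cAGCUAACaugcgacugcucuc
The seed AUCACUA was shared by miR-34b-3p and miR-34c-3p and by no other listed miRNA with a RefSeq sequence. These 2 strands were identical at 17 of 22 positions. The seeds of miR-34a-3p and miR-449a-3p each occurred in 1 listed miRNA.

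The 5 hairpins lie at 3 loci of GRCm38.p6. Mir34a is at chr4:150068454-150068555 on the plus strand, where GENCODE vM21 places an exon of the unconfirmed transcript Gm37795 over part of the hairpin. Mir34b (chr9:51103562-51103645) and Mir34c (chr9:51103034-51103110) are on the minus strand with 451 bp between them. RefSeq places both in an intron of Hoatz on the same strand. Btg4 crosses both on the opposite strand, and 3 of its RefSeq transcripts have an exon over Mir34b. Mir449c (chr13:113035983-113036091) and Mir449a (chr13:113037534-113037624) lie in introns of Cdc20b on the same strand, with 1442 bp between them.

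miR-34c-5p made up most of the family in SPCs. Levels are given as TPM, the reads of a miRNA per 1000000 reads of its library's own total, without correction for length. What this total contains is not given in the sources used here, and reads on miRNAs made up 91.5% of the control total and 87.5% of the knockdown total. miR-34c-5p had 95024 reads in the control library and 53304 in the knockdown library, which were 9034 and 16687 TPM. By reads it ranked 25th among all miRNAs in the control and 12th in the knockdown. The other members of the 5p arm were far less abundant. miR-34b-5p, processed from the same primary transcript, had 3557 and 2907 reads (338 and 910.0 TPM). miR-34a-5p had 1564 and 756 reads (149 and 237 TPM), and miR-449a-5p had 1155 and 330 reads (110 and 103 TPM). Only 18 and 4 reads fell on miR-449c-5p (1.71 and 1.25 TPM). Thus, the miR-449 miRNAs were detected in these cultures, but at a level far below that of miR-34c-5p, which had 82.3 times the reads of miR-449a-5p in control SPCs and 162 times after knockdown.

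Among the 3p strands, miR-34b-3p was the most abundant, with 1970 control reads and 735 knockdown reads (187 and 230.1 TPM). miR-34c-3p had 969 and 325 reads (92.1 and 102 TPM). miR-34a-3p had 14 and 8 reads (1.33 and 2.50 TPM) and miR-449a-3p 15 and 2 reads (1.43 and 0.626 TPM). With 3 reads taken as the smallest detectable level (0.285 TPM in the control and 0.939 TPM in the knockdown), miR-449a-3p was below it in the knockdown library. All 9 members had at least 2 reads in each library.

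**Figure D1:**
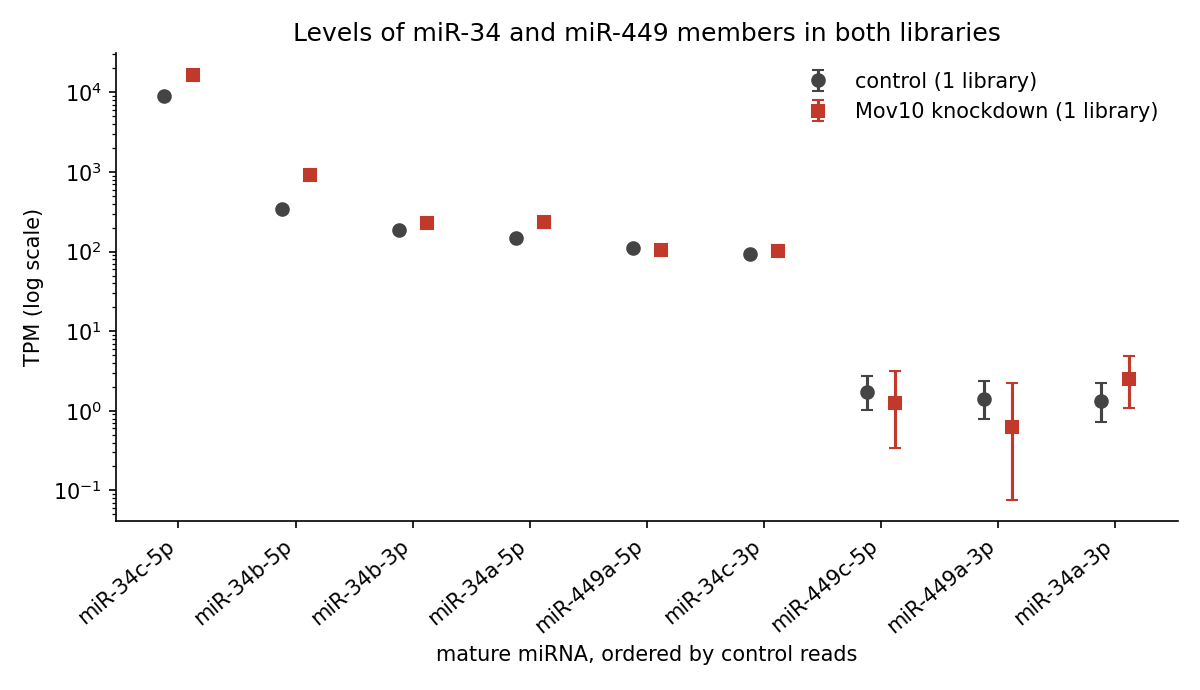
TPM (log scale) of the 9 members in the control library (circles) and the Mov10 knockdown library (squares), ordered by control reads, with 95% exact Poisson intervals that cover counting error only. miR-34c-5p stands at 9034 and 16687 TPM, 5 members lie between 92.1 and 910.0 TPM, and 3 lie below 3 TPM with wide intervals.

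The order of the levels was tested between neighbours within each library (exact binomial test, adjusted over 16 pairs). In the control, each of the 6 most abundant members differed from the next, with miR-449a-5p above miR-34c-3p as the closest pair (adjusted p = 9.4e-05, exact binomial test). In the knockdown, miR-34a-5p and miR-34b-3p were not separated (756 and 735 reads, adjusted p = 0.81, exact binomial test), nor were miR-449a-5p and miR-34c-3p (330 and 325 reads, adjusted p = 0.93). miR-449c-5p, miR-449a-3p and miR-34a-3p could not be put in order in either library. The strands of the miR-34b hairpin stood nearer to each other than those of the other hairpins, and its 3p strand was above miR-34a-5p in the control library (adjusted p = 1.6e-11, exact binomial test).

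Relative to each library's own total, the 3 miR-34 members of the 5p arm and miR-34b-3p were higher in Mov10 knockdown SPCs and no miR-449 member passed the test, whereas with 1 common total for both libraries every member had a lower value. The fold change was taken as the log2 ratio of TPM + 0.1, which understates the change of rare miRNAs, and a miRNA was counted as raised or reduced when it changed over 1.5-fold and had more than 1.5 TPM in the higher library. Of the 8 members above this minimum, 4 were raised and 0 reduced. Over all 607 miRNAs above the minimum, 15.8% were raised and 41.5% were reduced, with a median log2 fold change of -0.37. The exact binomial test, adjusted over the 1096 miRNAs, called 4 members higher in the knockdown library and 0 lower, against 10.7% higher and 21.4% lower over all miRNAs. The raised members were miR-34c-5p, miR-34b-5p, miR-34a-5p and miR-34a-3p, and the members past the binomial test were miR-34c-5p, miR-34b-5p, miR-34a-5p and miR-34b-3p. Of these, miR-34a-3p was above 1.5 TPM only in the knockdown library (1.33 and 2.50 TPM), the value that also made it raised. miR-449a-3p (1.43 and 0.626 TPM) missed the minimum and could not be counted as reduced. With 1.5 TPM required in both libraries, 3 members and 14.5% of all miRNAs above it were raised. With a minimum of 1 TPM, 1 member and 42.9% of all miRNAs above it were reduced.

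miR-34b-5p had the largest increase in TPM among the members, by 2.69-fold (95% interval 2.56 to 2.83, log2 fold change 1.43), and only 20 of the 607 miRNAs had a higher log2 fold change. The TPM of miR-34c-5p was 1.85 times as high in the knockdown as in the control (1.83 to 1.87, log2 fold change 0.89), and 53 miRNAs lay above it. Both p-values from the exact binomial test were too small to be useful as numbers. miR-34a-5p rose by 1.59-fold in TPM (1.46 to 1.74, adjusted p = 1.7e-23, exact binomial test). With 1 common total, the log2 fold changes of these 3 miRNAs were -0.29, -0.83 and -1.05. miR-34a-3p had a similar ratio of 1.88, but with 14 and 8 reads its interval ran from 0.684 to 4.81 and it did not pass the test (adjusted p = 0.46, exact binomial test).

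The 3p strands of the miR-34b/c transcript had lower knockdown to control ratios than their 5p partners, an order that rescaling a library cannot change. The TPM of miR-34b-3p was 1.23 times as high in the knockdown (1.13 to 1.34, adjusted p = 1.3e-05, exact binomial test), which is below the 1.5-fold limit, and with 1 common total its log2 fold change was -1.42. For miR-34c-3p the ratio was 1.10 (0.971 to 1.25), which was not separated from counting error (adjusted p = 0.30, exact binomial test). It passed the test after scaling by the median ratio (adjusted p = 0.00013) or by TMM (adjusted p = 0.00060), methods that align the bulk of the miRNAs between the libraries, and in the opposite direction with 1 common total (log2 fold change -1.57, adjusted p = 5.6e-74).

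None of the 3 miR-449 strands passed the test with the deposited TPM. miR-449a-5p had a TPM ratio of 0.941 between the knockdown and the control (0.830 to 1.06, adjusted p = 0.65, exact binomial test), an interval that lies within 1.5-fold in either direction on this scale. The TPM ratio was 0.732 for miR-449c-5p (95% interval 0.180 to 2.22) and 0.439 for miR-449a-3p (0.0487 to 1.89). Both intervals include a rise and a fall of over 1.5-fold. With 0.1 TPM added, the log2 fold changes were -0.42 and -1.07. With 1 common total, all 3 strands were lower by the exact binomial test, with log2 fold changes of -1.80 for miR-449a-5p (adjusted p = 1.4e-106), -1.92 for miR-449c-5p (adjusted p = 0.0085) and -2.39 for miR-449a-3p (adjusted p = 0.0047). Of all 1096 miRNAs, 607 were lower by this test with this total.

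**Figure D2:**
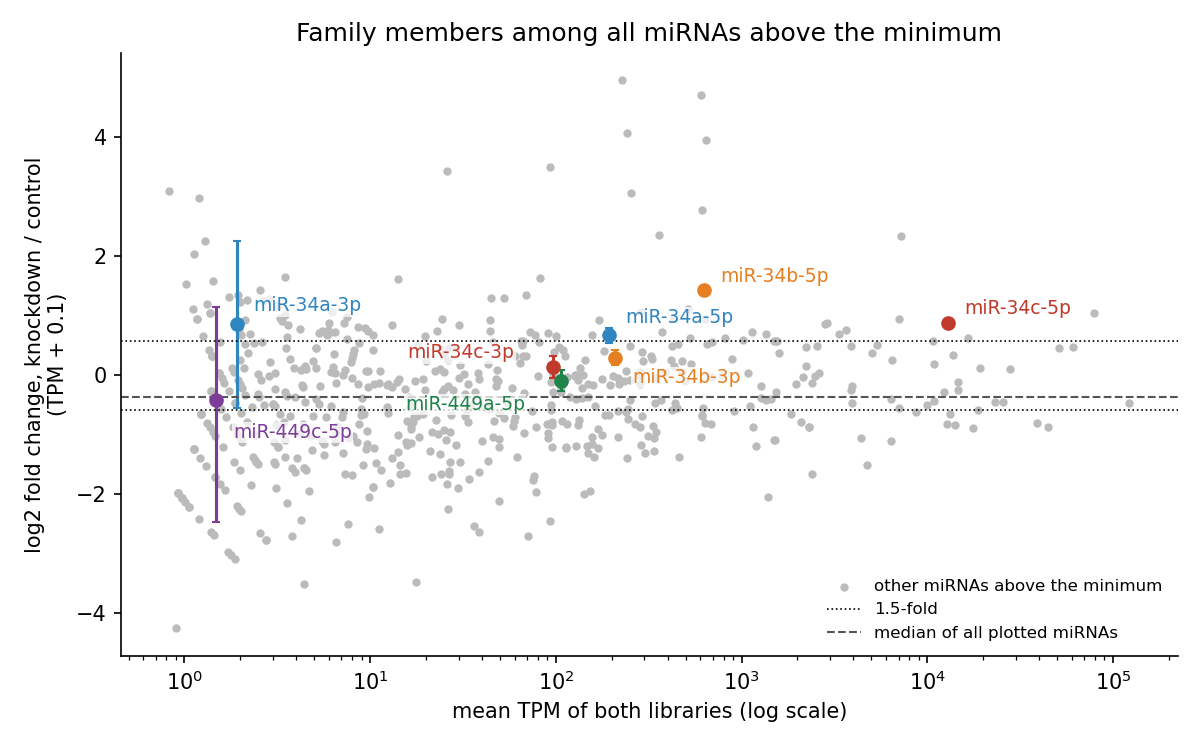
Log2 fold change (knockdown over control, TPM + 0.1) against the mean TPM of both libraries (log scale) for the 607 miRNAs above 1.5 TPM in the higher library, with the 8 members above this minimum coloured by hairpin and given 95% exact intervals. The intervals are those of the ratio without the added 0.1 TPM. miR-34c-5p (0.89) and miR-34b-5p (1.43) lie above the 1.5-fold line and miR-449a-5p (-0.09) lies below 0 but above the median of all plotted miRNAs (-0.37), and with 1 common total all members turn negative.

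Summed over the 5 members of the 5p arm, the seed family had 9633 TPM in the control and 17938 TPM in the knockdown, a log2 ratio of 0.90 (95% interval 0.88 to 0.91) that turned to -0.82 with 1 common total. Its share of all miRNA reads was 1.05% in control SPCs and 2.05% after knockdown of Mov10. Without miR-34c-5p, the other 4 summed to 598 and 1251 TPM (log2 ratio 1.06). The 4 members of the 3p arm had 282 and 335 TPM together (log2 ratio 0.25, interval 0.15 to 0.35). By locus, the log2 ratio of the summed TPM was 0.89 for Mir34b and Mir34c (0.88 to 0.91), 0.67 for Mir34a (0.55 to 0.80) and -0.10 for Mir449a and Mir449c (-0.28 to 0.07).

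Raw reads went the other way, and the knockdown library was the smaller one. It had 2794593 reads on miRNAs and a total of 3194363, against 9628835 and 10518277 in the control. All 9 members had fewer raw reads in the knockdown library, and the read ratio ranged from 0.133 for miR-449a-3p to 0.817 for miR-34b-5p. Scaling by reads on miRNAs, by the median ratio or by TMM left 4 members raised, and the median ratio moved the median log2 fold change of all miRNAs by 0.25 and TMM by 0.22. Over all miRNAs above the minimum, 18.3%, 23.7% and 23.5% were raised under these scalings, against 15.8% with the deposited TPM. When both libraries were divided by the control's total, the median moved by -1.63, 0 members were raised and 6 were reduced. Over all miRNAs above the minimum, 1.72% were then raised and 96.6% reduced. Relative to the median of all miRNAs, miR-34b-5p stood 1.79 log2 units higher with the deposited TPM and at least 1.76 higher under the 4 other scalings. miR-34c-5p stood 1.22 to 1.25 and miR-449a-5p 0.24 to 0.28 log2 units above this median under the 5 scalings. A rescaling moves each member and this median nearly alike, so these distances stay close by construction. Which scaling reflects the amount of miRNA per cell was not tested, and fewer cells of a type and less RNA per cell cannot be told apart.

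**Figure D3:**
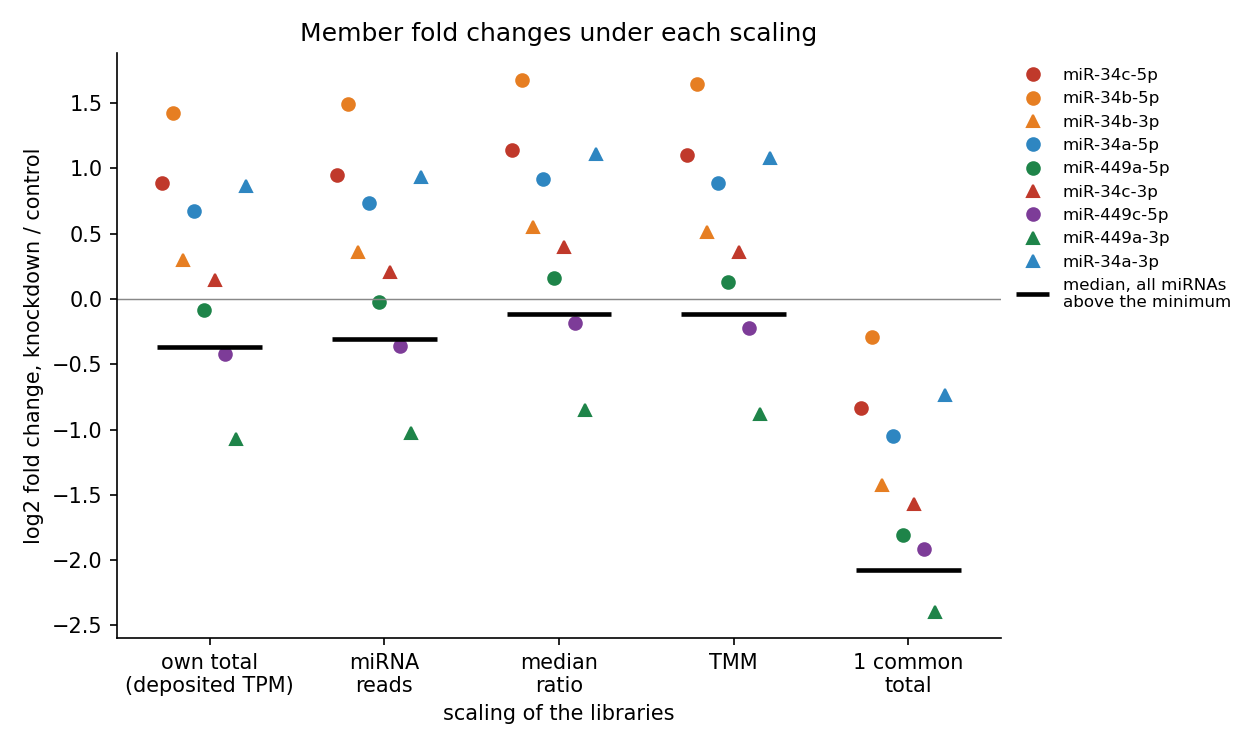
Log2 fold change (knockdown over control, TPM + 0.1) of the 9 members under 5 scalings of the libraries, with circles for the 5p arm, triangles for the 3p arm and bars for the median of all miRNAs above the minimum. miR-34b-5p has the highest and miR-449a-3p the lowest value. A scaling moves the whole set nearly alike, so it leaves most of the order in place by construction. With 1 common total all 9 values are negative, and miR-34a-3p (-0.73) stands above miR-34c-5p (-0.83). Their order is the reverse with the deposited TPM (0.86 and 0.89).

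Comparisons within the family do not depend on the scaling. In the 5p seed family, miR-34c-5p held 93.8% of control reads (95% exact interval 93.6 to 93.9%) and 93.0% of knockdown reads (92.8 to 93.2%). The share of miR-34b-5p rose from 3.51% (3.40 to 3.63%) to 5.07% (4.89 to 5.26%, adjusted p = 2.2e-49, Fisher's exact test over 8 comparisons). miR-449a-5p went from 1.14% (1.08 to 1.21%) to 0.576% (0.516 to 0.641%, adjusted p = 8.5e-31, Fisher's exact test), and miR-34a-5p from 1.54 to 1.32% (adjusted p = 0.00052). miR-449c-5p did not pass the test (adjusted p = 0.16, Fisher's exact test).

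Between the 2 miRNAs of the miR-34b/c transcript, miR-34c-5p had 26.7 times the reads of miR-34b-5p in the control library and 18.3 times in the knockdown library (adjusted p = 1.4e-47, Fisher's exact test). Their 3p strands were in the opposite order, with 2.03 and 2.26 times as many reads on miR-34b-3p as on miR-34c-3p, and this ratio was not separated between the libraries (adjusted p = 0.21, Fisher's exact test). miR-449a-5p held 98.5% and 98.8% of the reads of miR-449a-5p and miR-449c-5p, also without a detectable difference (adjusted p = 0.80, Fisher's exact test).

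Among the members, the shares of the 2 arms differed by the most percentage points for miR-34b. Of the reads on its hairpin, the 5p strand held 64.4% in control SPCs (95% exact interval 63.1 to 65.6%) and 79.8% after knockdown (78.5 to 81.1%), a rise of 15.5 percentage points (adjusted p = 1.0e-56, Fisher's exact test over 317 hairpin stems). The ratio of 5p to 3p reads was thus 1.81 and 3.96. For miR-34c, whose 5p strand predominated in both libraries, the 5p share was 98.99% and 99.39% (adjusted p = 2.9e-15, Fisher's exact test), and the ratio of 5p to 3p reads was 98.1 and 164. The log2 change of this ratio was 1.13 for miR-34b (95% interval 0.99 to 1.27) and 0.74 for miR-34c (0.56 to 0.93). Neither miR-34a (5p share 99.1 and 99.0%, adjusted p = 1, Fisher's exact test) nor miR-449a (98.7 and 99.4%, adjusted p = 0.79) differed beyond counting error, with only 8 and 2 reads on their 3p strands in the knockdown. miR-449c was listed with its 5p strand only.

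Thus, 2 of the 4 hairpins of the family with both arms moved toward 5p and 0 toward 3p. Over all 317 stems, 9.15% moved toward 5p and 7.57% toward 3p. Among the 232 stems with reads on both arms in both libraries, the median log2 change of the 5p to 3p ratio was 0.03. A larger change toward 5p than that of miR-34b was seen in 29 of these stems and than that of miR-34c in 53. This rank does not weigh counting error. Some stems above miR-34b had few reads, such as miR-5615 (5p and 3p reads 10 and 16 in the control, 8 and 1 in the knockdown). Others had many, such as miR-335 (4333 and 23725, then 2035 and 4572).

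**Figure D4:**
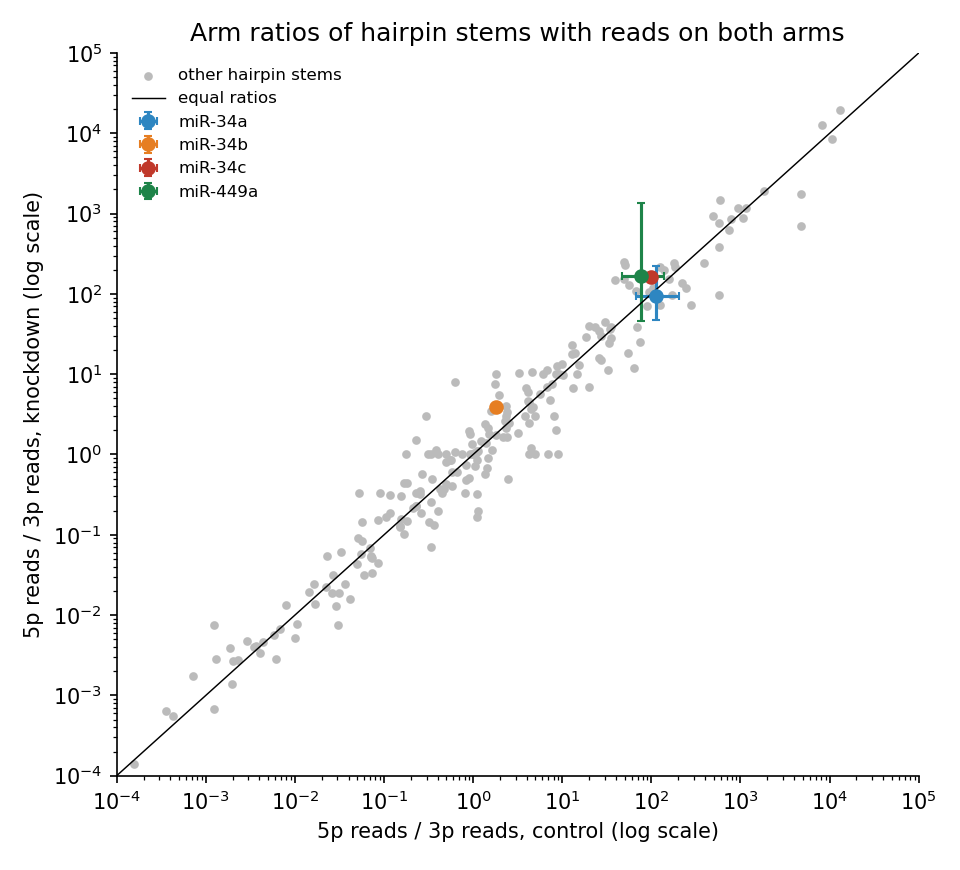
Ratio of 5p to 3p reads in the knockdown library against that in the control library (log scales) for the 232 hairpin stems with reads on both arms in both libraries, with the 4 family stems coloured and given 95% exact intervals. miR-34b (1.81 and 3.96) lies above the line of equal ratios, and miR-34c (98.1 and 164) lies closer to it.

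The miRNAs nearest to miR-34c-5p in level over the 2 libraries were let-7f-5p, miR-27b-3p and miR-99b-5p, with Euclidean distances of 0.38, 0.44 and 0.56 on the log2 scale of TPM + 0.1. Over 2 libraries this measures a like level more than a like pattern. Their log2 fold changes of 0.58, 0.34 and 0.19 were all below the 0.89 of miR-34c-5p, and all 4 had fewer raw reads in the knockdown library.

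Listed miRNAs outside the family that p53 is known to raise, by transcription or by processing, changed less than 1.5-fold with the deposited TPM. Of the 8 on this list, 0 were raised and 0 reduced, against 15.8% raised and 41.5% reduced over all miRNAs above the minimum. The median log2 fold change of the list was -0.15 against -0.37 over all miRNAs. The binomial test called 1 higher, miR-143-3p (log2 fold change 0.13), which is also a fibroblast miRNA, and 2 lower, miR-192-5p (-0.41) and miR-16-5p (-0.49). Over all miRNAs, 10.7% were higher and 21.4% lower by this test. The p53 target cluster member miR-194-5p had 39.1 and 37.6 TPM (-0.06). Whether p53 had a part in the levels of the family was not tested.

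Markers of the cells that the cultures could hold also differed between the libraries. All 9 fibroblast miRNAs had reads in both libraries, as had the 13 of spermatogonial stem and progenitor cells and the 10 of later germ cells or testis. With the deposited TPM, the summed fibroblast level was 25554 TPM in the control and 29335 TPM in the knockdown, and 1 of 9, miR-199b-5p, was raised and 0 reduced (median log2 fold change 0.13), with 5 higher and 1 lower by the binomial test. Of the spermatogonial miRNAs, 2 were raised and 6 reduced (median -0.47), with 4 higher and 9 lower by the binomial test. Their sum was 208791 and 222887 TPM, of which miR-21a-5p had 51967 and 107056 TPM and the other 12 had 156824 and 115831 TPM. Of the miRNAs of later germ cells or testis, 0 were raised and 9 reduced (median -0.85), with 0 higher and 10 lower by the binomial test, and the sum went from 129035 to 74896 TPM. This list is mixed and was abundant in control SPCs, with miR-470-5p at 57858 TPM and miR-871-3p at 49591 TPM, so its level does not by itself mark later cells. Over all miRNAs, as above, 15.8% were raised and 41.5% reduced, and 10.7% were higher and 21.4% lower by the binomial test. With the deposited TPM, miR-34b-5p and miR-34c-5p had positive log2 fold changes and the 10 miRNAs of this mixed list negative ones. With 1 common total, those of miR-34b-5p and miR-34c-5p were negative as well (-0.29 and -0.83). The part of the cell composition in the levels of the family was not tested.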

How the data were processed

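Small RNAs of control and Mov10 knockdown SPCs were sequenced, and each group had 1 library. The methods speak of triplicate samples and do not say whether these were pooled. The authors filtered rRNA, trimmed adaptors, mapped reads to miRBase mature miRNAs without mismatch, and deposited read counts and TPM. Counts divided by TPM gave 1 total per library (10518277 and 3194363), so 1 read was 0.0951 TPM in the control and 0.313 TPM in the knockdown. RNA-seq and CLIP-seq samples were not analysed here.

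Counts were compared by two-sided exact conditional binomial tests given these totals (Benjamini-Hochberg over 1096 miRNAs, threshold 0.05), and arm and family shares by two-sided Fisher's exact tests. Intervals are 95% exact (Clopper-Pearson or Poisson, conditional for odds ratios). Those of a ratio between the libraries are for the ratio without the added 0.1 TPM. edgeR 4.0.16 gave only TMM factors, and scipy 1.17.1 the tests, which were tested on simulated data. A count model across samples has no residual degrees of freedom here. Sequences and hairpin coordinates are from RefSeq (GRCm38.p6, 908 of 1096 miRNAs matched). Members, lists and tests were chosen with earlier results of these data known. Named miRNAs are all members, the 3 nearest to the most abundant member, and examples from the p53 and marker lists. Alternatives were 4 scalings, 2 pseudocounts, 4 minima, a 2-fold threshold, 0.5 read added to each arm, and the sum without miR-34c-5p.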

Additional observations from a re-analysis of the deposited data

How the results depend on the processing

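No paired analysis was possible because a single library stood for each condition. The scaling decided the direction. With 1 common total, 0 members were raised and 6 reduced, the binomial test called 0 higher and 8 lower, the seed family ratio was -0.82 (log2), and the log2 fold changes were -0.83 for miR-34c-5p, -1.57 for miR-34c-3p, -0.29 for miR-34b-5p, -1.42 for miR-34b-3p, -1.05 for miR-34a-5p and -0.73 for miR-34a-3p. Every member had fewer raw reads in the smaller knockdown library, so the direction depended on the totals used, with own totals as with 1 common total. The seed family ratio was 0.96 when scaled by miRNA reads, 1.15 with the median ratio, 1.11 with TMM and 1.06 without miR-34c-5p. miR-449a-5p, which passed no test under these 2 scalings, was at 0.16 with the median ratio and 0.13 with TMM. The 2-fold threshold left 1 member raised, miR-34b-5p, and 6.59% of all miRNAs above the minimum. The count of reduced members was 1, miR-449a-3p, when scaled by miRNA reads, with a minimum of 1 TPM and with no minimum. Under these settings 39.7%, 42.9% and 51.2% of all miRNAs above the minimum used were reduced. Over all miRNAs, 33.2% of the binomial calls were higher with the deposited TPM, 48.0% with the median ratio, 46.0% with TMM and 1.62% with 1 common total. Of the other 72 values, 67 kept their direction and side of the threshold or, for a count, stayed within 1.5 times of it, the pseudocounts and the 0.5 read added to each arm among them, and 5 passed the test only after rescaling, miR-34c-3p with the median ratio and TMM and all 3 miR-449 members with 1 common total. Among these counts, 3 members were raised with a minimum of 1.5 TPM in both libraries or of 10 TPM, miR-34a-3p being lost, and 5 passed as higher with the median ratio or TMM. Over all miRNAs, 14.5% and 13.5% were raised with these minima, and 169 and 159 of 1096 passed as higher under these scalings. With 1 library per group, no replicate could be left out, and depth limits miR-449c-5p, miR-449a-3p and miR-34a-3p.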
